A study of Homo sapiens with 12 samples.

Results

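The genes described here are the numbered zinc finger genes (ZNF followed by a number only) that H9 human embryonic stem cells expressed. They were chosen by their measured level, as the ZNF genes of the raw count table whose mean CPM (counts scaled to the library total) over the 4 ASO-Ctr libraries was at least 10. The table holds 53717 genes and 483 numbered ZNF genes, and 278 of these met the threshold. The other 205 lay under it, and 7 of them had no count in any library. The level in ASO-Ctr is therefore a criterion of choice and not a result.

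H9, an established human embryonic stem cell line, was kept in RSeT medium, which is sold for holding such cells in a naive-type state. The cells received 1 fluorescein-labelled oligonucleotide by lipid transfection (25 nM), and poly(A) RNA was sequenced from cells sorted for the label after 48 h. ASO-L1 is antisense to LINE1 RNA, sO-L1 is the sense oligo of LINE1, and ASO-Ctr is an antisense oligo without a specific target; each was measured in 4 libraries, 12 in all. Cells of all 3 groups also received 0.7 uM Trans-ISRIB, 5 uM emricasan and 10 uM Y-27632, which were withdrawn after 24 h, so none of the groups is untreated. All libraries come from 1 cell line, and nothing in the labels says whether the 4 replicates were grown apart, so the p-values describe the spread between these libraries, which may be technical. LINE1 is not a row of the count table, and its level is not analysed here.

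Most numbered zinc finger proteins read DNA through a row of C2H2 fingers, short loops folded around a zinc ion. A large primate-expanded subset carries a KRAB domain, which recruits the corepressor TRIM28 and through it the histone methyltransferase SETDB1. Many KRAB zinc finger proteins bind retroelements, LINE1 among them, and silence them in early embryonic cells. Their genes arose by tandem duplication and lie in long clusters, above all on chromosome 19. Neighbouring copies resemble each other, so reads shared between them make the level of a single gene uncertain.

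What these genes share beyond the rule was read from the annotation. Of the 278 genes 273 matched a protein-coding gene of GENCODE release 29, and 5 (ZNF259, ZNF271, ZNF542, ZNF788 and ZNF883) did not. A KRAB A box, counted as at least 12 identities to a 40-residue consensus, was found in 175 of the 273. The scores fell into 2 sets, up to 10 and from 12, and ZNF200, ZNF473 and ZNF496 lay next to the limit with 12 or 13. The proteins had a median of 10 C2H2 fingers, from 0 to 33, and 133 genes (48.7%) lie on chromosome 19. Among the 175 with a KRAB match 65.1% lie on that chromosome, against 19.4% of the 98 without one.

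Library totals were 22830894 to 55056032 counts, at which 3 counts equal 0.0545 to 0.131 CPM. All 278 genes passed the filter on low counts. That floor covers counting error only, and the spread between libraries limits the precision. The 278 genes together took 1.32, 1.16, 1.16 and 1.11% of the counts in ASO-L1 replicates 1 to 4, 1.10 to 1.12% in sO-L1 and 1.09 to 1.11% in ASO-Ctr. ASO-L1 replicate 1 stands apart: it was the highest of the 12 libraries for 149 of the 278 genes (53.6%), against 24.0% of the 17264 genes tested, and the lowest for 28 of them (10.1%), against 24.4%. The main counts below are therefore also given without that library.

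Markers of the cell state differed between the same groups. The 9 listed embryonic stem cell markers (POU5F1, NANOG, SOX2 and others) summed to 8496 to 9110 CPM with ASO-L1, 9675 to 10252 with sO-L1 and 9999 to 10115 with ASO-Ctr, and 0 were called higher and 4 lower in ASO-L1 against sO-L1. The 10 listed naive-state markers summed to 117 to 159 CPM with ASO-L1, 85.4 to 112 with sO-L1 and 79.2 to 99.5 with ASO-Ctr, and KLF17, which defines that state, averaged 0.0649, 0.209 and 0.108 CPM in these groups, at or near the limit of detection. Of the 8 naive-state markers that could be tested 5 were called higher and 1 lower in ASO-L1 against sO-L1. In that comparison 21.1% of all genes tested were called higher and 22.9% lower. For genes with at least 10 CPM in ASO-Ctr the shares were 26.2% and 29.8%. Neuroectoderm markers, nearly all of it NES, summed to 528 to 604 CPM with ASO-L1, 424 to 528 with sO-L1 and 392 to 454 with ASO-Ctr. Mesoderm markers, mostly MIXL1, summed to 17.7 to 30.1, 13.8 to 18.5 and 12.6 to 17.1 CPM. The sums of both lists overlapped between ASO-L1 and sO-L1, while NES, PAX6 and MIXL1 were called higher in ASO-L1 (log2 0.26, 0.87 and 0.45). The sums of fibroblasts (123 to 144, 121 to 150 and 132 to 158 CPM), trophectoderm (52.3 to 64.7, 50.8 to 62.4 and 50.4 to 58.9 CPM) and endoderm (6.34 to 14.1, 6.05 to 13.6 and 5.91 to 13.1 CPM) overlapped between groups, and LUM and CDX2 had no count anywhere. Single markers of these lists were called against sO-L1: of 5 fibroblast markers tested THY1 was higher (log2 0.64) and COL1A2 and PDGFRA lower (-0.69 and -1.11), of 3 trophectoderm markers GATA2 was higher (0.78), and of 2 endoderm markers FOXA2 was higher (0.89). The part of these shifts in the results below was not tested. In bulk RNA, fewer cells of a type and less RNA per cell cannot be told apart.

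ASO-L1 against sO-L1 compares the antisense and the sense oligo to LINE1, and the CPM threshold used neither group. The set itself was chosen with earlier results of these data known. Most of the zinc finger genes that passed the test were higher with ASO-L1, and by small amounts. With ASO-L1, 109 of 278 (39.2%) were higher and 46 (16.5%) lower than with sO-L1, and 123 were not called (edgeR quasi-likelihood test, blocked by replicate number, with p adjusted over 17264 genes and called under 0.05). Over all genes tested the same call gave 21.1% higher and 22.9% lower, and over the 9326 genes with at least 10 CPM in ASO-Ctr 26.2% higher and 29.8% lower. The median log2 fold change was 0.10 for the zinc finger genes, a 1.07-fold difference, against -0.0032 for all genes tested, and 189 of the 278 values were positive.

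The sizes were modest. The log2 fold changes spanned -0.85 to 0.83, and those of the called genes had a median size of 0.32, or 1.25-fold. Of the called genes 9 were at least 1.5-fold higher and 5 at least 1.5-fold lower, and 0 reached 2-fold in either direction. Among the 9326 genes with at least 10 CPM in ASO-Ctr these counts were 180, 438 and 73, and the median called size was 0.29. Over all 17264 genes tested they were 948, 1130 and 662, with a median called size of 0.37. The 4 ASO-L1 libraries lay wholly above the 4 sO-L1 libraries for 78 genes (28.1%) and wholly below them for 28 (10.1%), against 16.0% and 16.2% of all genes tested. The histograms of fold changes show the shift beside all genes.

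**Figure D1:**
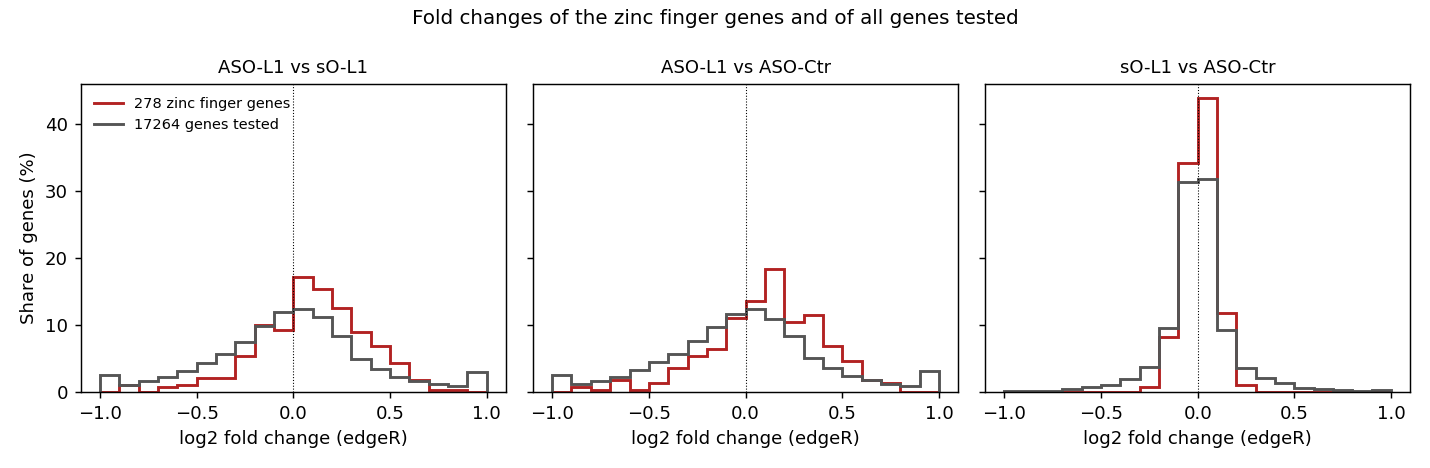
Distribution of log2 fold changes (x axis, bins of 0.1) for the 278 zinc finger genes (red) and the 17264 genes tested (grey), as a share of genes in percent, for the 3 comparisons; the outermost bins also hold values beyond 1 on either side. With ASO-L1 the red curve lies right of the grey one (medians 0.10 against sO-L1 and 0.13 against ASO-Ctr), and for sO-L1 against ASO-Ctr both are centred near 0.

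The upward shift differed between replicate numbers. Within a number, the median difference of log2 CPM between ASO-L1 and sO-L1 over the 278 genes was 0.23 in number 1, 0.12 in number 2, 0.055 in number 3 and -0.0038 in number 4, while that of all genes tested stayed between -0.0077 and -0.0028. The ASO-L1 library was the higher one for 72.3, 69.8, 63.7 and 49.3% of the zinc finger genes in numbers 1 to 4. All 4 numbers had the same sign for 120 genes that were higher (43.2%) and for 56 that were lower (20.1%), against 25.4% and 27.6% of all genes tested. Without ASO-L1 replicate 1 the counts were 100 higher and 56 lower, with a median of 0.062, against 20.5% and 22.1% of all genes tested in that fit. With numbers 3 and 4 only, an alternative added after the data were seen, they were 66 higher (23.7%) and 43 lower (15.5%) with a median of 0.046, against 16.0% and 16.4% of all genes tested in that fit.

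**Figure D2:**
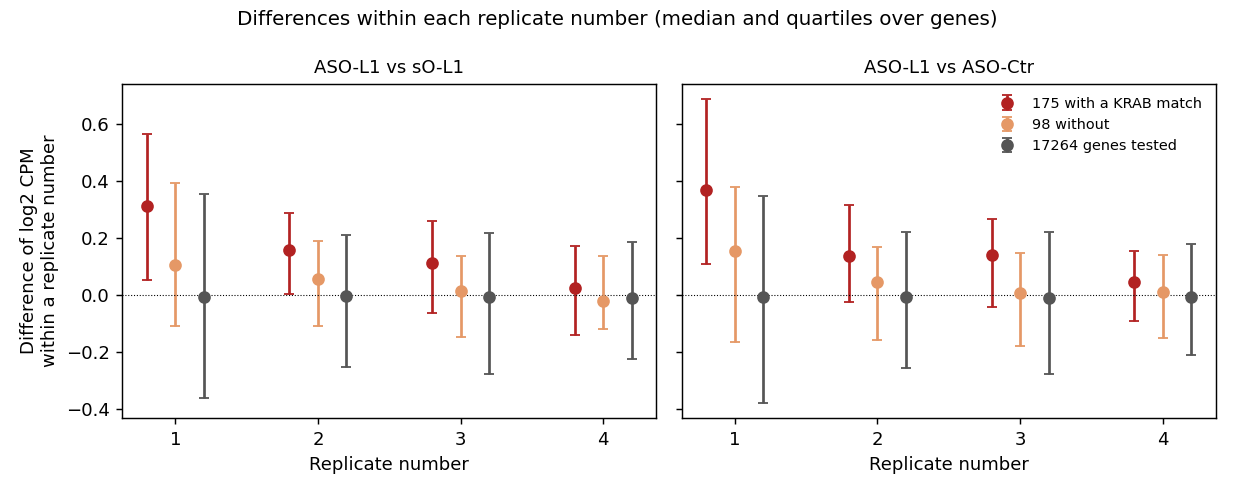
Difference of log2 CPM between libraries of the same replicate number, for ASO-L1 against sO-L1 (left) and ASO-L1 against ASO-Ctr (right): the median (point) and quartiles (bars) over 175 zinc finger genes with a KRAB match (red), 98 without (orange) and 17264 genes tested (grey). The red medians against sO-L1 are 0.31, 0.16, 0.11 and 0.026 in numbers 1 to 4, and the grey ones lie at 0.

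ZNF200 had the largest rise of the set. It stood at 42.5, 27.5, 31.2 and 23.5 CPM in ASO-L1 replicates 1 to 4, against 16.0, 16.3, 17.8 and 19.1 CPM in sO-L1 and 15.6, 17.8, 18.5 and 18.8 CPM in ASO-Ctr. All 4 ASO-L1 libraries were above all others, replicate 1 the most. The log2 fold change against sO-L1 was 0.83 (SE 0.13, 1.78-fold, adjusted p = 5.86e-05, edgeR). ZNF256, a KRAB gene of chromosome 19, came next with 43.3, 28.1, 30.5 and 25.0 CPM with ASO-L1, against 19.8, 16.6, 17.6 and 20.1 CPM with sO-L1 (log2 fold change 0.76, SE 0.10, adjusted p = 1.92e-05, edgeR); again the groups did not overlap. In ASO-Ctr it stood at 18.3, 18.3, 20.3 and 18.4 CPM.

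ZNF808 is the KRAB protein whose loss in humans prevents formation of the pancreas and which silences MER11 endogenous retroviruses. It had 29.3, 20.2, 22.9 and 19.2 CPM with ASO-L1, against 14.9, 12.9, 18.6 and 13.4 CPM with sO-L1 (log2 fold change 0.62, SE 0.10, adjusted p = 9.78e-05, edgeR). The lowest ASO-L1 library was above the highest sO-L1 library, by a small margin. ZNF141, another KRAB gene, had 48.9, 34.1, 33.6 and 32.7 CPM with ASO-L1, against 23.5, 22.4, 22.2 and 27.3 CPM with sO-L1 (log2 fold change 0.63, SE 0.09, adjusted p = 2.78e-05, edgeR). ASO-L1 replicate 1 was far above its 3 partners here, and these were close to each other. ZNF567 averaged 28.9 ± 4.47 CPM in ASO-L1 and 18.2 ± 1.76 CPM in sO-L1, and ZNF669 29.1 ± 6.55 and 18.4 ± 0.949 CPM (SD, n = 4 each), with log2 fold changes of 0.66 and 0.65. Both carry a KRAB match. Without ASO-L1 replicate 1 the 6 largest rises (ZNF200, ZNF256, ZNF567, ZNF669, ZNF141 and ZNF808) had log2 fold changes of 0.47 to 0.62, and all 6 were called there and in the fit of numbers 3 and 4 only (0.41 to 0.57).

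Some KRAB genes went the other way. ZNF626 stood at 6.45, 7.03, 5.29 and 4.75 CPM with ASO-L1, against 13.4, 9.56, 9.71 and 10.0 CPM with sO-L1 and 12.1, 12.2, 9.26 and 8.69 CPM with ASO-Ctr. No ASO-L1 library reached the lowest of the others. It fell by 0.85 on the log2 scale against sO-L1 (SE 0.11, 1.80-fold lower, adjusted p = 7.25e-06, edgeR). ZNF347 had 7.28, 9.82, 7.49 and 9.04 CPM with ASO-L1, against 13.2, 16.1, 15.5 and 15.2 CPM with sO-L1 (log2 fold change -0.83, SE 0.08, adjusted p = 5.08e-07, edgeR). All ASO-L1 values were below all sO-L1 values.

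ZNF664, a short 9-finger protein with no KRAB match, had 46.3, 59.2, 60.1 and 67.7 CPM with ASO-L1, against 95.6, 99.5, 106 and 108 CPM with sO-L1 and 96.4, 102, 105 and 104 CPM with ASO-Ctr. The groups were far apart, and the log2 fold change against sO-L1 was -0.82 (SE 0.06, adjusted p = 3.34e-08, edgeR). ZNF878 averaged 6.87 ± 0.710 CPM in ASO-L1 and 11.2 ± 2.65 CPM in sO-L1, where replicate 1 stood at 15.2 CPM and the other 3 at 9.69 to 10.2 CPM. ZNF841 averaged 10.4 ± 0.977 and 16.0 ± 0.532 CPM, and ZNF514 9.42 ± 1.57 and 14.1 ± 1.28 CPM (SD, n = 4 each). These 3 KRAB genes had log2 fold changes of -0.69, -0.63 and -0.58, and for each of them every ASO-L1 library was below every sO-L1 library. The plot of the leading genes shows all 12 libraries for both sets.

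**Figure D3:**
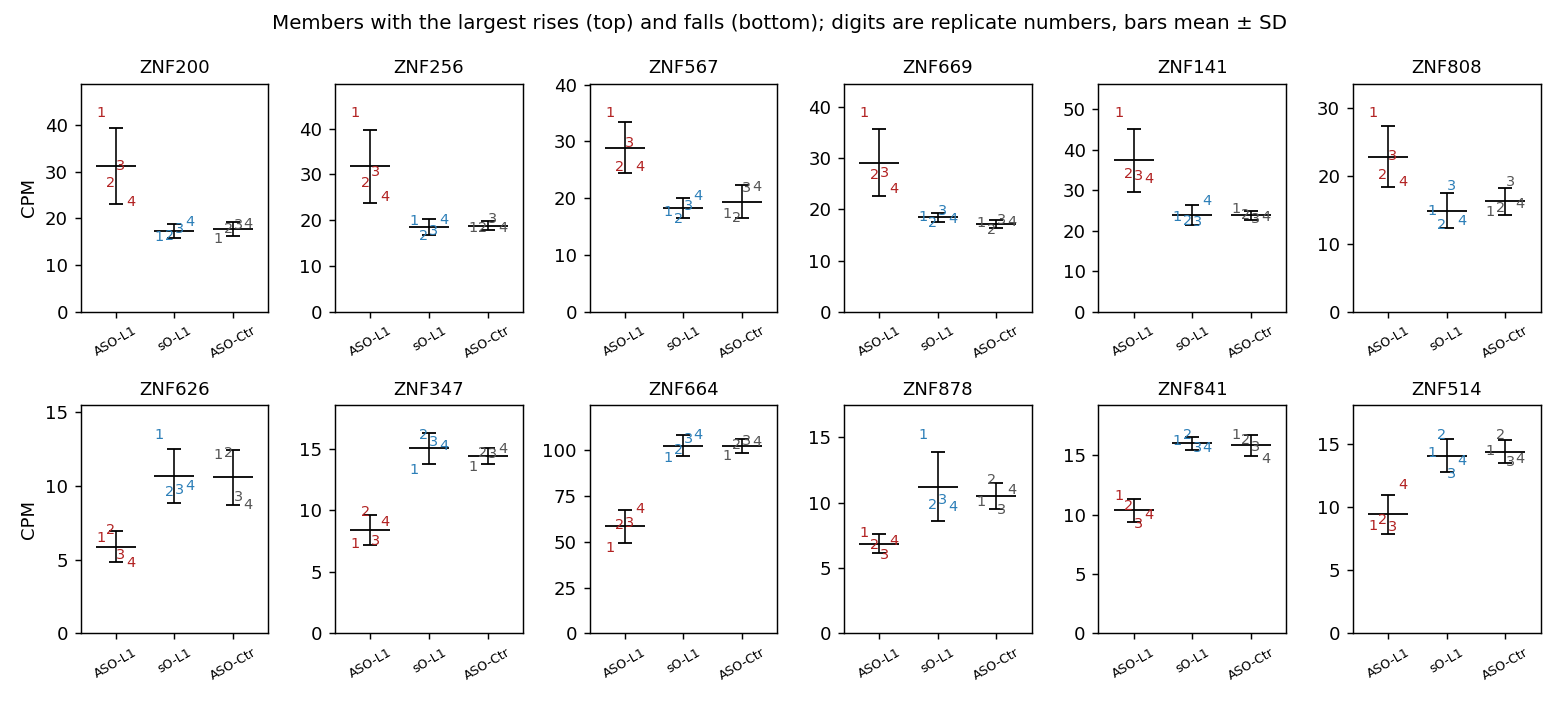
CPM of the 6 genes with the largest rises (top row) and the 6 with the largest falls (bottom row) in ASO-L1 against sO-L1; each digit is a library, placed at its value and named by its replicate number, and the bars give mean ± SD (n = 4) for ASO-L1, sO-L1 and ASO-Ctr. In the top row ASO-L1 replicate 1 is the highest value in every panel (48.9 CPM for ZNF141), and in the bottom row all ASO-L1 values lie under those of sO-L1.

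Promoters of genes that moved in opposite directions held the same ETS element. RefSeq promoters (GRCh38.p14, 250 bases before to 50 after the start) were matched for 241 of the 278 genes. The ETS site CCGGAAG, searched on both strands, lay in 44.0% of these promoters, against 10.7% of 27305 promoters in all. Among the zinc finger genes it lay in 42.3% of those called higher against sO-L1, 40.0% of those called lower and 47.1% of those not called. A match describes letters in a window and is not a binding site. The promoters of 2 genes that rose (ZNF256 and ZNF671) and of 2 that fell (ZNF347 and ZNF841) are shown because all hold this site; all are on the minus strand of chromosome 19, at chr19:57947657-57947956, chr19:57727575-57727874, chr19:53159004-53159303 and chr19:52095716-52096015, and capitals mark the site in either orientation, with both orientations overlapping in ZNF256.
ZNF256: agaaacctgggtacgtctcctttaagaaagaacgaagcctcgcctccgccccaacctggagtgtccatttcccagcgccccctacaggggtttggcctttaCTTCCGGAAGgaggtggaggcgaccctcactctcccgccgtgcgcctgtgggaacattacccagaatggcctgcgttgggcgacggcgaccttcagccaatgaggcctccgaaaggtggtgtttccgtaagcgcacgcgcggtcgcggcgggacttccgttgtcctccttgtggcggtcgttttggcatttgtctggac
ZNF671: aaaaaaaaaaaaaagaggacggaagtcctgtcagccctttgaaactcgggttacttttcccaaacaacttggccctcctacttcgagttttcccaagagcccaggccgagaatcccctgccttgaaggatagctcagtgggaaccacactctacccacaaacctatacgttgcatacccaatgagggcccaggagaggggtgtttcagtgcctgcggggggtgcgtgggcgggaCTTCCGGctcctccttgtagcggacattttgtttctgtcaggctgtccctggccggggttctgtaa
ZNF347: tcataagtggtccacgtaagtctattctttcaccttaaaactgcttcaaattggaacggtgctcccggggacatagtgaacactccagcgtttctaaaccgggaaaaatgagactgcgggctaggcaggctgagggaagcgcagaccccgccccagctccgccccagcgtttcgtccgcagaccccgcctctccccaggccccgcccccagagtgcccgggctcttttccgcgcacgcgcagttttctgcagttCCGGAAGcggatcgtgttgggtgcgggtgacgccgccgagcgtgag
ZNF841: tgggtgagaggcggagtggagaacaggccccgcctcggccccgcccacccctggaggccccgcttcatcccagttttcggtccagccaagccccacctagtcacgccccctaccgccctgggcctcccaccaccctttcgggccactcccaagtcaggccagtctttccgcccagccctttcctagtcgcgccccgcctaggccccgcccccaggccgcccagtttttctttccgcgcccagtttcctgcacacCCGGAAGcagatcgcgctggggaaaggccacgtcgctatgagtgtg

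Other motifs were read in the same windows. The GC box GGGCGG lay in 65.6% of the zinc finger promoters (44.6% of all), in 60.8% of those called higher and 72.5% of those called lower. The CCAAT box CCAAT lay in 46.9% (35.7% of all), in 50.5% of those called higher and 37.5% of those called lower. The cAMP response element TGACGTCA lay in 4.56% (1.98% of all). It lay in 7 of 97 promoters of genes called higher (7.22%), 0 of 40 called lower and 4 of 104 not called (3.85%). The ATF4 response element TGATGNAA lay in 1.24% (3.67% of all), in none of the genes called in either direction. The median number of CpG dinucleotides was 22 per promoter, against 14 in all promoters.

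Neighbouring genes were described by cluster. A cluster was counted as a run of zinc finger genes with at most 2 other protein-coding genes between neighbours, and 11 clusters held at least 5 of the genes, 128 in all. The cluster nearest the end of the long arm of chromosome 19, from ZNF304 to ZNF544, held 27 of the genes. With ASO-L1, 16 of them (59.3%) were higher and 0 lower than with sO-L1 (median log2 0.26, 24 of 27 positive). Of the 278 genes 39.2% were higher and 16.5% lower, and of all genes tested 21.1% and 22.9%. ZNF256, ZNF671 and ZNF274 belong to this cluster. ZNF671, a KRAB gene, averaged 22.4 ± 4.12 CPM in ASO-L1 and 14.7 ± 1.49 CPM in sO-L1 (SD, n = 4 each; log2 fold change 0.59, SE 0.09, adjusted p = 4.07e-05, edgeR). ZNF274, which binds zinc finger gene clusters and brings SETDB1 to them, had 42.0, 38.9, 35.3 and 34.1 CPM with ASO-L1, against 25.2, 32.6, 31.9 and 30.9 CPM with sO-L1 (log2 fold change 0.32, SE 0.08, adjusted p = 0.00377, edgeR). Its groups did not overlap, and sO-L1 replicate 1 was the lowest. Without ASO-L1 replicate 1 the log2 fold change was 0.21, without replicate number 1 it was 0.19, both still called, and with numbers 3 and 4 only it was 0.16 and not called (adjusted p = 0.089, edgeR).

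Another cluster of the same chromosome arm, from ZNF577 to ZNF677, held 25 of the genes. Against sO-L1 4 of them (16.0%) were higher and 8 (32.0%) lower (median -0.06). Against ASO-Ctr, whose level chose the genes, 9 (36.0%) were higher and 8 (32.0%) lower (median -0.0056). Of all genes tested 21.2% and 23.1% were higher and lower than with ASO-Ctr. ZNF347, ZNF841, ZNF468 and ZNF808 belong to the cluster from ZNF577 to ZNF677. Genes with the largest falls and a gene with one of the largest rises thus share a cluster. The next cluster of this size, from ZNF845 to ZNF331, held 6 genes. Against sO-L1 it had 1 higher (ZNF331) and 5 lower (ZNF845, ZNF525, ZNF765, ZNF761 and ZNF813; median -0.23), named after their values were seen. Against ASO-Ctr it had 1 higher and 3 lower (median -0.12), and the end cluster had 16 higher and 0 lower (median 0.29). All 25 and 6 of these genes except 1 carry a KRAB match, as do 25 of the 27 in the end cluster.

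The remaining 8 clusters had positive medians. Most hold few genes, and their counts stand beside 39.2% higher and 16.5% lower for the 278 genes. For all genes tested the shares were 21.1% and 22.9%. On chromosome 19, 8 of 12 genes were higher and 3 lower from ZNF146 to ZNF607 (median 0.28), 4 of 6 higher and 0 lower from ZNF559 to ZNF562 (0.42), 3 of 7 higher and 1 lower from ZNF627 to ZNF791 (0.15), and 2 of 5 higher and 0 lower from ZNF45 to ZNF180 (0.13). The primate cluster from ZNF101 to ZNF254, home of ZNF91 and ZNF93, had 5 of 22 (22.7%) higher, close to the 21.1% of all genes tested, and 1 lower (0.07), which was ZNF626. Outside chromosome 19, 4 of 7 genes were higher on chromosome 7 from ZNF786 to ZNF746 (0.19), 4 of 6 on chromosome 12 from ZNF605 to ZNF268 (0.27) and 3 of 5 on chromosome 1 from ZNF695 to ZNF496 (0.19), with 0 lower in each.

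The same clusters were read in single replicate numbers. Against sO-L1 the end cluster of chromosome 19 had medians of 0.51, 0.22, 0.17 and 0.11 in numbers 1 to 4, and the one from ZNF845 to ZNF331 had -0.19, -0.21, -0.24 and -0.29. That from ZNF577 to ZNF677 had 0.031, -0.030, -0.087 and -0.11. With numbers 3 and 4 only, the end cluster had 9 higher and 0 lower, and that from ZNF577 to ZNF677 had 2 higher and 10 lower. That from ZNF845 to ZNF331 then had 1 higher and 5 lower. In that fit 16.0% of all genes tested were higher and 16.4% lower. Of the other 8 clusters 4 had a negative median in number 4, namely those from ZNF695 to ZNF496 (-0.032), ZNF605 to ZNF268 (-0.068), ZNF101 to ZNF254 (-0.094) and ZNF45 to ZNF180 (-0.061). With numbers 3 and 4 only, the median was -0.0027 from ZNF101 to ZNF254 (2 higher, 2 lower), 0.077 from ZNF605 to ZNF268 and 0.044 from ZNF45 to ZNF180, and 0.081 to 0.32 in the other 5. The difference between clusters was not tested, since members and clusters were chosen with results known and neighbouring copies can share reads. The strip plot of fold changes by cluster gives every gene.

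**Figure D4:**
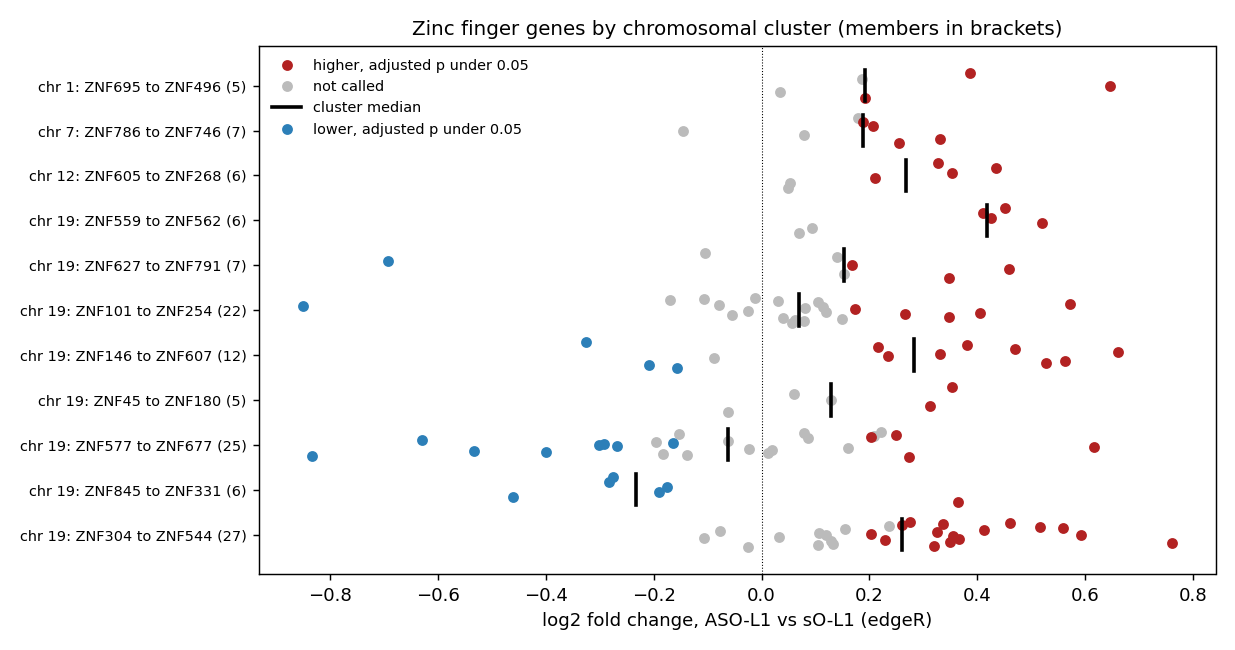
Log2 fold change of ASO-L1 against sO-L1 (x axis) for each of the 128 genes in the 11 clusters with at least 5 of the genes, one row per cluster, named by chromosome and by its first and last gene with the number of genes in brackets; red and blue points were called higher and lower, grey points were not called, and black bars are cluster medians. The bottom row (16 higher, 0 lower) and the row above it (1 higher, 5 lower) both lie on chromosome 19.

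The calls were also split by the KRAB domain, without a test of the difference. Of 175 genes with a KRAB match 76 (43.4%) were higher and 24 (13.7%) lower with ASO-L1 than with sO-L1 (median log2 0.14), and of 98 without it 32 (32.7%) were higher and 20 (20.4%) lower (median 0.070). The 3 genes next to the limit, ZNF200, ZNF473 and ZNF496, were all called higher. With replicate numbers 3 and 4 only, 47 (26.9%) of the KRAB genes were higher and 25 (14.3%) lower, and 18 (18.4%) and 17 (17.3%) of the others, against 16.0% and 16.4% of all genes tested in that fit. By chromosome, 53 of 133 genes on chromosome 19 were higher and 20 lower, against 55 and 24 of 140 elsewhere. The fold change was also set against the number of fingers, the protein length and the level in ASO-Ctr. Across genes r lay between -0.081 and 0.033 for the fold change against sO-L1 (n = 273 genes in the same libraries). For that against ASO-Ctr, whose level chose the genes, r lay between -0.14 and 0.045.

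Genes of the set on a short list of known retroelement binders moved both ways. The list holds 17 genes and is not exhaustive. Of the 11 listed genes that belong to the set 4 (36.4%) were higher and 2 (18.2%) lower with ASO-L1 than with sO-L1 (median log2 0.13). All genes tested had 21.1% and 22.9%, and those with at least 10 CPM in ASO-Ctr 26.2% and 29.8%. The median of the 11 genes was 0.075 without replicate number 1 and 0.0048 with numbers 3 and 4 only, where 3 were higher and 2 lower. In the fit of all libraries the higher ones were ZNF141, ZNF587, ZNF695 and ZNF808, and the lower ones ZNF468 and ZNF765. ZNF93, which silenced LINE1 families during primate evolution, had 67.3, 68.9, 75.3 and 71.0 CPM with ASO-L1, against 64.4, 65.6, 70.6 and 76.5 CPM with sO-L1 (log2 fold change 0.03, SE 0.06, adjusted p = 0.729, edgeR). ZNF91, which silences SVA elements, had 50.2, 46.2, 45.0 and 37.8 CPM with ASO-L1, against 38.5, 40.0, 41.3 and 41.5 CPM with sO-L1 (log2 fold change 0.15, SE 0.07, adjusted p = 0.105, edgeR). For both genes the groups overlapped. ZNF91 had a log2 fold change of 0.061 without ASO-L1 replicate 1, 0.075 without replicate number 1 and 0.0048 with numbers 3 and 4 only. It was called without ASO-L1 replicate 4 (0.22, adjusted p = 0.0106), sO-L1 replicate 4 (0.21, adjusted p = 0.0369) or replicate number 4 (0.25, adjusted p = 0.0121, all edgeR). ZNF468, a KRAB gene of this list, had 26.0, 23.9, 27.8 and 27.9 CPM with ASO-L1, against 36.0, 30.9, 34.3 and 38.1 CPM with sO-L1 (log2 fold change -0.40, SE 0.06, adjusted p = 2.70e-05, edgeR), without overlap.

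The SCAN domain lets zinc finger proteins pair with each other. Of 14 genes of this list 8 (57.1%) were higher and 2 (14.3%) lower with ASO-L1 than with sO-L1 (median log2 0.19). Of the 278 genes 39.2% were higher and 16.5% lower, and of all genes tested 21.1% and 22.9%. With replicate numbers 3 and 4 only, 4 list genes were higher and 0 lower, against 16.0% and 16.4% of all genes in that fit. ZNF263, which has both a SCAN and a KRAB domain, stood at 114, 77.6, 77.3 and 71.7 CPM with ASO-L1, against 63.8, 52.0, 53.6 and 51.4 CPM with sO-L1 (log2 fold change 0.61, SE 0.07, adjusted p = 1.75e-06, edgeR). Every ASO-L1 library was above every sO-L1 library, and without ASO-L1 replicate 1 the log2 fold change was 0.52. ZNF232 and ZNF483 were the 2 lower genes, with log2 fold changes of -0.18 and -0.22.

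Zinc finger proteins that act on RNA, ribosomes and the spindle were measured as well. ZNF598, the ubiquitin ligase that senses collided ribosomes, had 71.9, 55.6, 64.1 and 61.4 CPM with ASO-L1, against 45.4, 49.9, 46.0 and 55.3 CPM with sO-L1 (log2 fold change 0.36, SE 0.07, adjusted p = 0.000611, edgeR); the lowest ASO-L1 value was just above the highest sO-L1 value. ZNF330, a nucleolar protein, averaged 59.2 ± 5.09 CPM in ASO-L1 and 48.9 ± 1.69 CPM in sO-L1 (SD, n = 4 each; log2 fold change 0.27, SE 0.05, adjusted p = 0.000403, edgeR). ZNF622, a factor in the maturation of the large ribosomal subunit, averaged 62.7 ± 2.47 and 60.8 ± 1.86 CPM and was not called (log2 0.04, SE 0.05). These were 2 higher and 0 lower of 4 genes of this list. The shares were 39.2% higher and 16.5% lower for the 278 genes, and 21.1% and 22.9% for all genes tested. A list of 4 genes is too short to be compared with them.

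Of 6 genes that act on RNA or in mitosis 3 were higher and 1 lower. This list too is short beside the 39.2% higher and 16.5% lower of the 278 genes. All genes tested had 21.1% and 22.9%. ZNF473, which serves the 3′ processing of histone mRNA, had 20.4, 15.3, 15.5 and 12.6 CPM with ASO-L1, against 11.6, 9.45, 10.6 and 11.9 CPM with sO-L1 (log2 fold change 0.55, SE 0.10, adjusted p = 0.000455, edgeR), without overlap. ZNF207, a partner of the spindle checkpoint protein BUB3, averaged 282 ± 7.59 CPM in ASO-L1 and 257 ± 5.89 CPM in sO-L1 (log2 fold change 0.14, adjusted p = 0.0199, edgeR). ZNF326, which links RNA polymerase II to splicing, averaged 114 ± 6.51 and 102 ± 4.69 CPM (log2 0.16, adjusted p = 0.0149, edgeR; SD, n = 4 each). Both differences are small: the ZNF207 call was lost in 5 of 25 alternatives and the ZNF326 call in 6, mostly fits that left out libraries, among them that of numbers 3 and 4 only. ZNF106, an RNA-binding protein, was the lower one (log2 -0.14).

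Chromatin and pluripotency regulators went both ways, with 6 of 23 (26.1%) higher and 6 lower (median log2 0.058), shares close to the 26.2% and 29.8% of all genes with at least 10 CPM in ASO-Ctr. Without replicate number 1 the median was 0.0028, and with numbers 3 and 4 only 3 were higher and 6 lower (median -0.017). ZNF146, a protein of fingers and little else, had 272, 299, 291 and 310 CPM with ASO-L1, against 378, 340, 364 and 387 CPM with sO-L1 (log2 fold change -0.33, SE 0.04, adjusted p = 1.40e-05, edgeR), and ZNF217, a subunit of CoREST repressor complexes, had 121, 118, 117 and 123 CPM against 147, 129, 139 and 142 CPM (log2 -0.22, SE 0.04, adjusted p = 0.000596, edgeR). In both genes every ASO-L1 library was below every sO-L1 library. ZNF462, a 33-finger protein of embryonic stem cell chromatin, averaged 123 ± 7.29 CPM in ASO-L1 and 138 ± 6.43 CPM in sO-L1 (SD, n = 4 each; log2 fold change -0.17, SE 0.04, adjusted p = 0.00622, edgeR). ZNF592, ZNF609 and ZNF687 were the other lower ones, at log2 -0.26, -0.19 and -0.15.

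ZNF532, a partner of ZNF592 and ZNF687 in a chromatin complex, moved in the other direction. It had 425, 355, 305 and 300 CPM with ASO-L1, against 298, 317, 286 and 288 CPM with sO-L1 (log2 fold change 0.21, SE 0.06, adjusted p = 0.00767, edgeR). The groups overlapped, and the log2 fold change was 0.12 without ASO-L1 replicate 1, 0.14 without sO-L1 replicate 1 and 0.11 without replicate number 1, all called, and 0.084 with numbers 3 and 4 only (adjusted p = 0.0981, edgeR). ZNF281, a transcription factor of the pluripotency network, averaged 99.3 ± 5.95 and 97.7 ± 6.04 CPM. ZNF644, which guides the methyltransferases G9a and GLP, averaged 129 ± 5.26 and 127 ± 6.81 CPM with ASO-L1 and sO-L1 (SD, n = 4 each). Neither was called (log2 0.02 each, SE 0.05 and 0.06). ZNF143, an activator of promoters, had 36.5 to 38.8 CPM in ASO-L1 and 32.4 to 36.0 CPM in sO-L1 (log2 fold change 0.14, adjusted p = 0.0612, edgeR). Its groups did not overlap. ZNF143 was called without ASO-L1 replicate 1, sO-L1 replicate 1 or ASO-Ctr replicate 1 (log2 0.14, 0.17 and 0.14, adjusted p = 0.0443, 0.0435 and 0.0496). It was also called without replicate number 1 (0.16, adjusted p = 0.0164) and with upper quartile factors (adjusted p = 0.0365, all edgeR). Limma called it on the batch-corrected values without a replicate term (adjusted p = 0.043), while the authors' own comparison did not (adjusted p = 0.0857, moderated test). It stayed uncalled in 9 of 12 fits without a single library and in 3 of 4 without a replicate number.

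ASO-L1 against ASO-Ctr compares the LINE1 oligo with one that has no specific target. Since the level in ASO-Ctr chose the genes, these counts are given as a description. With ASO-L1, 118 genes (42.4%) were higher and 45 (16.2%) lower than with ASO-Ctr, against 21.2% and 23.1% of all genes tested, and the median log2 fold change was 0.13. The within-number medians were 0.29, 0.10, 0.096 and 0.019. Without ASO-L1 replicate 1, 109 were higher and 49 lower (against 3718 and 3860 of the 17531 genes tested in that fit), and with numbers 3 and 4 only 76 (27.3%) and 40 (14.4%), against 16.0% and 16.5% of all genes tested there. Of KRAB genes 88 were higher and 18 lower, and of those without a match 29 and 25. The comparisons against sO-L1 and ASO-Ctr share the ASO-L1 libraries. Of the genes called higher, 95 were called in both (87.2% of those against sO-L1 and 80.5% of those against ASO-Ctr), as were 38 of the lower ones (82.6% and 84.4%), and 0 had opposite calls.

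ZNF618 and ZNF629 had larger fitted falls against ASO-Ctr, whose level chose the genes, than against sO-L1. ZNF618, a cofactor of UHRF2 at modified cytosines, had 35.5, 40.6, 37.3 and 40.0 CPM with ASO-L1, against 48.3, 53.8, 52.4 and 54.1 CPM in sO-L1 and 61.3, 59.5, 57.2 and 59.5 CPM in ASO-Ctr. The 3 groups did not overlap. Its log2 fold change was -0.63 against ASO-Ctr (SE 0.05, adjusted p = 1.27e-07) and -0.44 against sO-L1 (SE 0.05, adjusted p = 4.77e-06, both edgeR). ZNF629 averaged 10.2 ± 0.871, 13.7 ± 2.09 and 16.3 ± 1.95 CPM in the same order (SD, n = 4 each), with log2 -0.67 and -0.42. For sO-L1 against ASO-Ctr neither passed the test (log2 -0.19 and -0.26, adjusted p = 0.232 and 0.363, edgeR).

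The sense oligo was also set against the control oligo. The level in ASO-Ctr chose the genes, so these values too are given as a description. For sO-L1 against ASO-Ctr, 0 of the 278 genes were higher and 1 was lower, against 0.0695% and 0.22% of all genes tested, and the median log2 fold change was 0.016. By edgeR 10 of the 278 genes had an unadjusted p under 0.05 in the higher and 8 in the lower direction. Over the 17264 genes tested these counts were 551 and 681. DESeq2 and limma also called 0 of the 278 genes higher and 1 lower. The single called gene was ZNF638, whose protein silences unintegrated retroviral DNA with the HUSH complex. It stood at 172, 206, 201 and 196 CPM with sO-L1 and 165, 204, 197 and 197 CPM with ASO-L1, against 193, 241, 234 and 228 CPM with ASO-Ctr. In each replicate number the ASO-Ctr library was the highest, although the groups overlapped across numbers. The log2 fold change was -0.21 (SE 0.04, adjusted p = 0.0172) for sO-L1 and -0.23 (SE 0.04, adjusted p = 8.76e-05) for ASO-L1 against ASO-Ctr, both edgeR. The call for sO-L1 was lost in 12 of 25 alternatives, among them the fit without the replicate block.

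Genes at the threshold had levels close to 10 CPM in ASO-Ctr by construction. Just inside lay ZNF473 (10.02 CPM), ZNF30 (10.05 CPM) and ZNF484 (10.1 CPM), and just outside ZNF853 (9.96 CPM), ZNF248 (9.95 CPM) and ZNF557 (9.64 CPM). Of the 169 numbered genes under the threshold that could be tested, 44 (26.0%) were higher and 16 (9.47%) lower with ASO-L1 than with sO-L1 (median log2 0.12), against 21.1% and 22.9% of all genes tested. The 123 genes not called in that comparison had log2 fold changes of -0.20 to 0.24, and the median SE over the 278 was 0.071. A gene that was not called is not thereby shown to be unchanged. Split by level, 38 of 109 genes at 10 to 20 CPM were higher and 16 lower, 40 and 12 of 97 at 20 to 50 CPM, and 31 and 18 of 72 at 50 CPM or more.

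Among the corepressors through which KRAB proteins act, and their silencing partners, more genes were called lower than higher. Of 20 such genes 3 were higher and 8 (40.0%) lower with ASO-L1 than with sO-L1 (median log2 -0.081), against 21.1% and 22.9% of all genes tested. Against ASO-Ctr 1 was higher and 8 lower (median log2 -0.091), where the 2 sets of genes had 21.2% and 23.1%, and 26.3% and 30.6%. The same 8 genes were lower in both comparisons, and they are named after their values were seen. Against sO-L1 they were the DNA methylation maintenance factor UHRF1 (log2 -0.39) and its partner methyltransferase DNMT1 (-0.15), the heterochromatin proteins CBX1 (-0.31) and CBX5 (-0.27), the SETDB1 partner ATF7IP (-0.28), the remodellers CHD3 (-0.23) and CHD4 (-0.12), and the deacetylase HDAC2 (-0.14). TRIM28 averaged 1021 ± 26.9 CPM with ASO-L1, 933 ± 10.7 CPM with sO-L1 and 980.3 ± 43.5 CPM with ASO-Ctr (SD, n = 4 each). It was called against sO-L1 (log2 0.13, SE 0.04, adjusted p = 0.00718) and not against ASO-Ctr (log2 0.06, adjusted p = 0.195, both edgeR). SETDB1 averaged 39.9 ± 2.58 CPM with ASO-L1, 40.4 ± 1.48 CPM with sO-L1 and 41.7 ± 2.99 CPM with ASO-Ctr and was not called (log2 -0.02 against sO-L1, SE 0.05). The other 2 corepressor genes higher than with sO-L1 were the deacetylase HDAC1 (log2 0.20) and the chromatin assembly subunit CHAF1A (log2 0.13), named after their values were seen. Of 41 zinc finger genes with other names (ZFP, ZSCAN and ZKSCAN genes and the like) 12 (29.3%) were higher and 6 (14.6%) lower than with sO-L1 (median 0.15). Of 36 ZNF genes with a letter after the number 9 (25.0%) were higher and 7 (19.4%) lower (median 0.014), close to the shares of all genes tested.

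The authors' deposited table of ASO-L1 against sO-L1 holds all 278 genes. At an adjusted p under 0.05 it lists 100 of them as higher and 36 as lower, against 16.1% and 16.7% of its 20856 genes, and all 278 fold changes have the same sign as in the fit used here.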

How the data were processed

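RNA of 12 libraries of H9 cells was sequenced from poly(A) RNA (80 to 130 ng) with a directional kit, per the labels' protocols. Trim Galore 0.4.0, TopHat2 2.0.13, featureCounts of Subread 1.5.0 and hg19 are named in the submitters' processing notes; the annotation and the strand setting of the counting are not given in the sources used here, so overlapping and antisense genes cannot be told apart. The authors deposited raw gene counts from which duplicates had been taken out, per the labels. The authors also deposited batch-corrected log2 values (20187 genes) and a table of ASO-L1 against sO-L1 with log2 fold changes, p-values and scores; the scores were not used.

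The counts were fitted with edgeR 4.0.16 in R 4.3.3 (TMM, filterByExpr with a minimum count of 10, group plus replicate number as a block, all 12 libraries) by the quasi-likelihood test, two-sided, with Benjamini-Hochberg adjustment over 17264 genes and calls under 0.05. CPM values by library use TMM sizes; the selection used raw totals. The block follows the name of the log2 table, which mentions a batch correction, and the shared replicate numbers: the deviations of same-numbered libraries correlated with r of 0.216 to 0.725 in all 12 pairs (10549 genes). The script was tested on simulated data. Alternatives used DESeq2 1.42.0, limma 3.58.1, other scalings, filters and thresholds, and libraries left out. Promoters came from RefSeq (GRCh38.p14), and proteins and gene order from GENCODE release 29, matched by symbol.

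The genes, lists and clusters were chosen with earlier results of these data known. Named were, per comparison, the 6 largest called rises and falls with the same sign in all 4 numbers, the 4 genes with the highest level, those next to the threshold, the 2 called genes with the smallest adjusted p in each role list, and a fixed list of known regulators; others named are members of a short count or cluster. The KRAB limit was set at a gap in the scores.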

Additional observations from a re-analysis of the deposited data

Results flagged for a closer look

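In groups of 4 libraries, a value was marked when its gap to the nearest of the others, as a share of the group's range, passed Dixon's critical value. This held for 8 of 111 groups checked, and chance marks about 1 in 20. With ASO-L1, replicate 1 was the highest for ZNF141 (48.9 CPM, the others 32.7 to 34.1) and ZNF263 (114.0 CPM, the others 71.7 to 77.6). With sO-L1, replicate 1 was the highest for ZNF626 (13.4 CPM, the others 9.56 to 10.0) and ZNF878 (15.2 CPM, the others 9.69 to 10.2). With ASO-Ctr, replicate 3 was the highest for ZNF256 (20.3 CPM) and replicate 2 for ZNF484 (10.3 CPM), while replicate 2 was the lowest for ZNF622 (55.3 CPM) and replicate 1 for ZNF644 (109.0 CPM).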

How the results depend on the processing

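No named result changed direction among those called. With replicate numbers 3 and 4 only, chosen after the data were seen, ASO-L1 gave 66 higher genes against sO-L1 and 76 against ASO-Ctr. With a threshold of 20 CPM the counts were 71 higher and 30 lower of 169 genes, and 77 and 29 against ASO-Ctr, from fewer genes. For sO-L1 against ASO-Ctr, fitting only these groups gave 4 higher and 4 lower. Without the replicate block the counts were 89 and 32, 96 and 36, and 0 and 0 in the 3 comparisons. Leaving out libraries or numbers gave 85 to 118 higher and 32 to 56 lower against sO-L1 (median 0.0620 to 0.146), 96 to 132 and 34 to 52 against ASO-Ctr (0.0854 to 0.166), and 0 to 1 and 0 to 4 for sO-L1 against ASO-Ctr (-0.0181 to 0.0377). DESeq2 gave 107 and 43 against sO-L1, and limma, on the batch-corrected values without a replicate term, 100 and 59. Of the named calls 22 of 27 against sO-L1 and 27 of 29 against ASO-Ctr were kept in all 25 alternatives. Against sO-L1, ZNF143 and ZNF91 were not called with all libraries and were called in some fits that left libraries out. The cause of these differences was not tested.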
